A study of Mus musculus with 8 samples.

Results

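The genes of plasma cell identity and secretion were followed in lung RNA as a set of 10: Prdm1, Xbp1, Irf4, Pou2af1, Sdc1, Tnfrsf17, Mzb1, Derl3, Fkbp11 and Ell2. They were chosen by name, as known genes of plasma cells and with earlier results of these data known, and all 10 were found by symbol among the 52636 genes of the count files. All 10 also passed the filter on low counts that left 20546 genes for testing. Whole lungs of male, wild type C57BL/6 mice were sequenced as total RNA in 8 libraries, with 2 libraries in each of 4 groups. The PBS groups received phosphate-buffered saline alone, and the elastase+LPS groups received porcine pancreatic elastase at 10 weeks of age and lipopolysaccharide (LPS) from 12 weeks of age, a mouse model of chronic obstructive pulmonary disease (COPD). Each was fed either the control diet or, from 8 weeks of age, a diet with 2% of hochuekkito (TJ-41), a Japanese herbal medicine. The sources used here do not say at what age the sequenced lungs were taken, or whether a library held 1 mouse or several.

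Plasma cells are the end stage of the B cell lineage and secrete antibody. Blimp-1 (encoded by Prdm1) and Irf4 switch the B cell programme off, Xbp1 expands the endoplasmic reticulum (ER), and a group of ER proteins then folds and exports the antibody chains. In the lung, plasma cells lie mainly around airways and vessels, and they supply the dimeric IgA and pentameric IgM that are joined by the J chain (Jchain) and carried to the airway surface. Several of the 10 genes are also used by other lung cells: Sdc1 and Xbp1 are well known in epithelium, and Prdm1 and Irf4 in T cells and myeloid cells. The libraries were of whole lung, so a lower number of cells of one type and less RNA per cell cannot be told apart in any of the values below.

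The libraries held 18767295 to 20888042 counts. Values are given as CPM, counts scaled to library size, on library sizes adjusted by the trimmed mean of M values (TMM), in which 3 counts were worth 0.153 to 0.162 CPM. Differences were tested with edgeR's quasi-likelihood test, and a gene was called changed at a false discovery rate under 0.05 (Benjamini-Hochberg adjustment over 20546 genes) with a log2 fold change beyond 1. In elastase+LPS mice on the control diet the replicates were the least alike, with an SD over genes of 0.675 for the log2 CPM difference of its 2 libraries and of 0.313 to 0.377 in the other 3 groups. Replicate 2 of that group had the lowest summed level of 10 B cell marker genes (200 CPM, against 269 to 446 in the other 7 libraries) and the highest summed level of 8 alveolar type II marker genes (38700 CPM, against 18900 to 28800). Lung epithelial and endothelial markers were present in every library. Nothing in the labels says that the libraries of a group came from separate animals, so that p-values measure the spread between these libraries, which may be partly technical.

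Promoter sequences were examined because Xbp1, Irf4, Pou2af1 and Blimp-1 are all DNA-binding or DNA-bound regulators of genes of this kind. The windows were those of RefSeq on GRCm38.p6, from 250 bases before to 50 bases after each gene start, and 9 of the 10 genes were searched on both strands. The full ER stress response element, CCAAT and CCACG with 9 bases of any kind between them, to which ATF6 and Xbp1 are known to bind, was found in 1 of the 9, Derl3, and in 39 of all 32851 windows (0.119%). The core of the unfolded protein response element, TGACGTGG, a classical Xbp1 motif, was found in 1 of the 9, Pou2af1, and in 0.676% of all windows. An interferon-stimulated response element-like repeat, GAAA and GAAA with 2 bases of any kind between them, of the type bound by interferon regulatory factors such as Irf4, was found in Tnfrsf17 and in 3.44% of all windows. The 250 bases before the start of these 3 genes are shown 5′ to 3′ on the plus strand of GRCm38.p6, since they hold the longer motifs. Capitals mark the ER stress response element and the other CCACG sites in Derl3 (chr10:75893148-75893397), the TGACGTGG core in Pou2af1 (chr9:51213440-51213689) and the repeat in Tnfrsf17 (chr16:11313559-11313808).
Derl3: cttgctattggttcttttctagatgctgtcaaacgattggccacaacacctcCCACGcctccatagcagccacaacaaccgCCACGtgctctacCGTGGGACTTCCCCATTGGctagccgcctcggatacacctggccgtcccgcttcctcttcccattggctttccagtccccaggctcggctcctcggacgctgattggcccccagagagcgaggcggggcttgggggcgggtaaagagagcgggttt
Pou2af1: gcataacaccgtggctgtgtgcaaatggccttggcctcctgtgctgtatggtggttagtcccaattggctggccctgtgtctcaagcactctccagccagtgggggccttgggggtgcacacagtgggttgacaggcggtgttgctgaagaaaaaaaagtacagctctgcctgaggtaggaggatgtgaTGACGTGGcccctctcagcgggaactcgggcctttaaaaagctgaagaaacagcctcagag
Tnfrsf17: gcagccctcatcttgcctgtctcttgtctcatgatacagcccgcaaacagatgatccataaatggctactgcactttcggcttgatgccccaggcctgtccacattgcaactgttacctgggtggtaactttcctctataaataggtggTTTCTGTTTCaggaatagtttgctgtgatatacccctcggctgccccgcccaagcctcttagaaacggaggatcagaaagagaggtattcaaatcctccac
In Derl3 the ER stress response element read on the opposite strand, at positions -156 to -138 relative to the start. The core in Pou2af1 lay at -61 to -54 on the gene's own strand, and the repeat in Tnfrsf17 lay at -101 to -92 on the opposite strand. The short parts of these elements were common: the CCACG site, which overlaps both of the first motifs, was in 6 of the 9 windows and in 32.8% of all windows, and the CCAAT box, which is part of the ER stress response element, was in 6 of the 9 and in 37.4% of all. The octamer ATGCAAAT, the site at which Pou2af1 joins Oct factors, was in 0 of the 9 (1.74% of all windows), as were the ETS-IRF composite, GGAA and TGAAA with 1 base between them (0.731%) and the Blimp-1 core GTGAAAG (4.24%). A match of letters is a description of these windows only, and binding was not measured.

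Per kilobase of exon, so that genes can be set beside each other, the 10 genes covered a wide range of levels. The mean over the 8 libraries was 86.2 ± 5.35 CPM per kb (SD, n = 8) for Xbp1 and 41.2 ± 5.41 for Sdc1. Next in order of CPM per kb were Pou2af1 (10 ± 2.38), Mzb1 (7.94 ± 2.17), Ell2 (4.3 ± 0.755), Irf4 (3.9 ± 0.9) and Prdm1 (3.69 ± 1.1). Fkbp11 (1.93 ± 0.954 CPM per kb), Derl3 (1.38 ± 0.697) and Tnfrsf17 (0.995 ± 0.663) were lowest. Pou2af1 and Mzb1 did not differ beyond these SDs, nor did neighbours among Ell2, Irf4 and Prdm1, or among Fkbp11, Derl3 and Tnfrsf17. Jchain, for comparison, had 150 ± 130 CPM per kb.

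The spread across the libraries differed between the genes. Xbp1 was the steadiest, with a highest library 1.18 times its lowest, followed by Sdc1 (1.45 times) and Ell2 (1.62 times). Mzb1 (2.04 times), Pou2af1 (2.13 times), Irf4 (2.33 times) and Prdm1 (3.0 times) varied more, and Fkbp11 (3.89 times), Derl3 (3.99 times) and Tnfrsf17 (17.5 times) varied most. The ratio for Tnfrsf17 rests on 2 to 35 counts per library, and its lowest library held fewer than 3 counts.

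**Figure D1:**
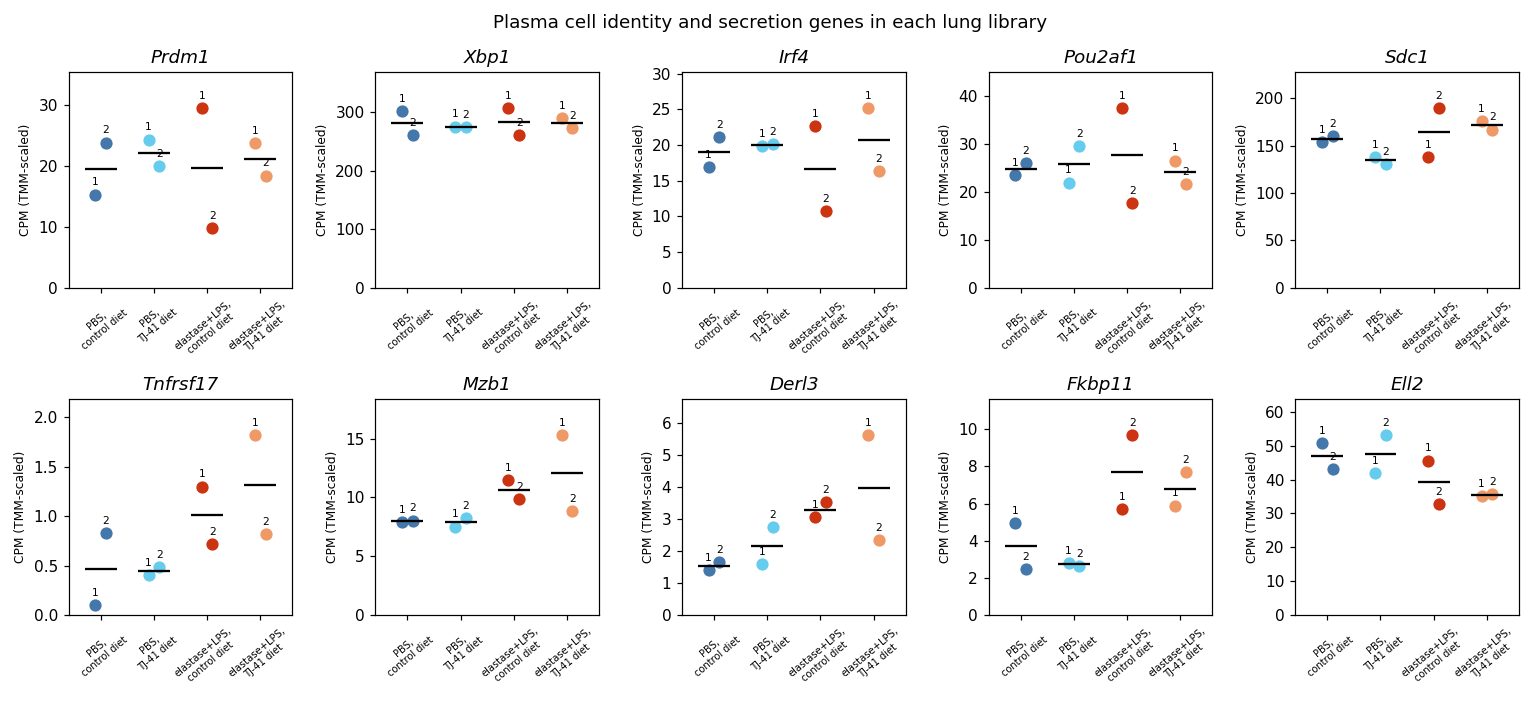
CPM of each of the 10 genes in each of the 8 libraries, on linear axes that start at 0, with the group on the x axis. Points are libraries, numbered by replicate, and black bars are group means. In Mzb1 and Fkbp11 the 4 elastase+LPS libraries all lie above the 4 PBS libraries, and in Prdm1 and Irf4 the lowest point of the panel is replicate 2 of elastase+LPS mice on the control diet (9.83 and 10.8 CPM).

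The first question was whether elastase and LPS changed these genes in mice on the control diet. Of the 10 genes, 0 were called, where 0.122% of all genes tested were called (25 genes). At an unadjusted p under 0.05 there were 2, Derl3 and Fkbp11, both higher, where 7.7% of all genes passed that level and 4.68% passed it with a higher value. The lowest adjusted p among the 10 was 0.545 in edgeR's quasi-likelihood test, and DESeq2's Wald test and edgeR's exact test also called 0 of 10. Without replicate 2 of elastase+LPS mice on the control diet, the library that stood apart, 2 other genes had an unadjusted p under 0.05, Prdm1 (log2 fold change 0.60) and Pou2af1 (0.60), and Derl3 and Fkbp11 did not (15.4% of all genes in that fit). Without replicate 1 of the same group 6 of 10 did, beside 31.4% of all genes: Derl3 (1.2) and Fkbp11 (1.37) were higher, while Prdm1 (-0.99), Irf4 (-0.82), Ell2 (-0.52) and Pou2af1 (-0.49) were lower. Prdm1 and Pou2af1 thus took opposite signs with 1 or the other replicate left out. Without PBS control diet replicate 1 Fkbp11 was at 1.62, Derl3 at 0.99 and Tnfrsf17 at 0.28. Without PBS control diet replicate 2 they were at 0.62, 1.22 and 3.19. The median log2 fold change of the 10 was 0.11 with all libraries, beside 0.01 over all genes tested. In 3 genes, Mzb1, Derl3 and Fkbp11, both elastase+LPS libraries lay above both PBS libraries, where such a separation upward held for 13.6% of all genes. On the TJ-41 diet 0 of 10 were called (0.0779% of all genes), 1 had an unadjusted p under 0.05 (Fkbp11, higher, beside 6.56% of all genes and 3.55% with a higher value), the lowest adjusted value of p was 0.566 by the same test, and the median was 0.2 beside 0 over all genes. DESeq2's Wald test and edgeR's exact test called 0 of 10 there as well. That count of 1 depended on single libraries: it was 5 without elastase+LPS control diet replicate 2 (18% of all genes), 4 without replicate 1 of that group (17.9%), 3 without elastase+LPS TJ-41 diet replicate 2 (3.45%), and 2 without either PBS control diet library. With all libraries on the TJ-41 diet, 4 genes separated upward (28.5% of all genes) and Ell2 separated downward (27.9%). The 2 model comparisons share no library, but their p-values rest on 1 estimate of the spread that the 4 groups share. They are therefore not independent tests.

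With the effects on the 2 diets averaged, 0 of 10 were called, beside 0.443% of all genes (91 genes). In this comparison 5 of 10 had an unadjusted p under 0.05, beside 10.4% of all genes. Fkbp11, Derl3, Mzb1 and Tnfrsf17 were higher in elastase+LPS mice, as were 6.18% of all genes at that level, and Ell2 was lower, as were 4.21%. This count ran from 1 to 7 when 1 library was left out. It was 1 (Fkbp11, beside 5.73% of all genes) without elastase+LPS TJ-41 diet replicate 1, where Mzb1 was at 0.29 (unadjusted p = 0.17) and Derl3 at 0.61 (unadjusted p = 0.077) in edgeR's quasi-likelihood test. When 1 library was left out, the value ran from 0.97 to 1.47 for Fkbp11, from 0.61 to 1.24 for Derl3 and from 0.29 to 0.69 for Mzb1. It ran from 0.92 to 2.38 for Tnfrsf17 and from -0.47 to -0.22 for Ell2. Fkbp11 was the one gene that stayed under 0.05 in all 8 of these fits. By adjusted p the lowest was Fkbp11, at 0.138 in edgeR's quasi-likelihood test. The 4 elastase+LPS libraries lay above the 4 PBS libraries in 2 of 10 genes, Mzb1 and Fkbp11, beside 3.35% of all genes. With all libraries the 3 genes of the ER were among the 5, and the 4 transcription factors had log2 fold changes between -0.06 and 0.03. This division rested on single libraries, since Mzb1 and Derl3 dropped out without elastase+LPS TJ-41 diet replicate 1, and Prdm1 (-0.53) and Irf4 (-0.38) had an unadjusted p under 0.05 without elastase+LPS control diet replicate 1.

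**Figure D2:**
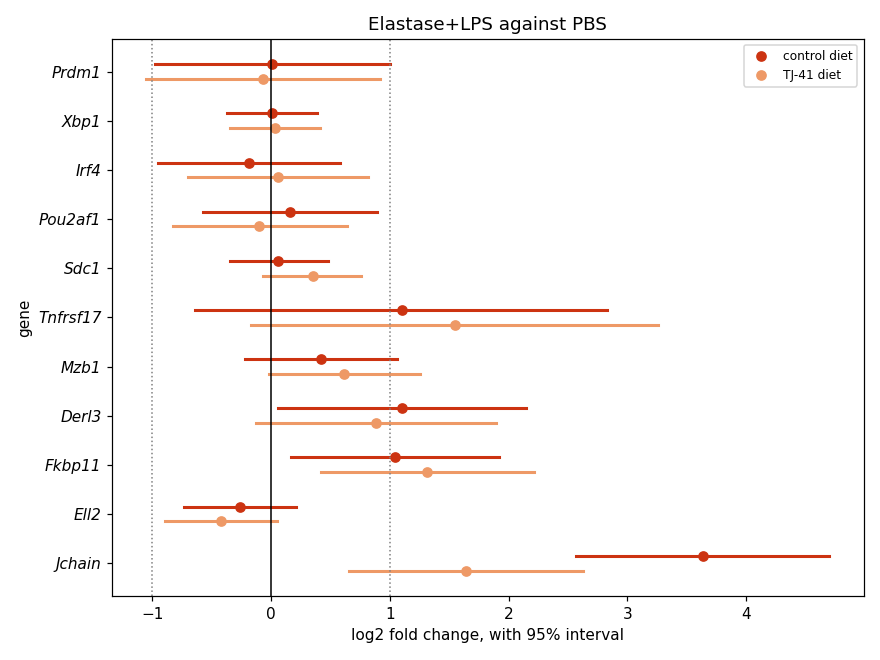
Log2 fold change of elastase+LPS against PBS mice (x axis) for each gene (y axis), on the control diet and on the TJ-41 diet, with Jchain for comparison. Points are estimates, bars are 95% intervals, and dotted lines mark a log2 fold change of 1 in either direction. For 8 of the 10 genes on the control diet and 9 of 10 on the TJ-41 diet the bar crosses 0.

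Among the ER genes, Fkbp11 (ENSMUSG00000003355, chromosome 15, 98724366 to 98728198, GRCm38) had the lowest p of the 10. It encodes a peptidyl-prolyl isomerase of the FKBP family that is abundant in secretory cells, plasma cells among them. On the control diet Fkbp11 was at 4.96 and 2.49 CPM in the PBS libraries and at 5.68 and 9.68 CPM in the elastase+LPS libraries. On TJ-41 it was at 2.81 and 2.65 CPM in the PBS libraries and at 5.89 and 7.71 CPM in the elastase+LPS libraries. All 4 elastase+LPS libraries were thus above all 4 PBS libraries, and PBS control diet replicate 1 was the PBS library nearest to them. The log2 fold change was 1.04 on the control diet (SE 0.39, 95% interval 0.17 to 1.92, adjusted p = 0.545), 1.31 on the TJ-41 diet (SE 0.40, 0.42 to 2.21, adjusted p = 0.566) and 1.18 over both (SE 0.28, 0.55 to 1.80, adjusted p = 0.138, edgeR's quasi-likelihood test). Over both diets Fkbp11 ranked 302 of 20546 genes by p. Fkbp11 was called under 3 of 15 alternatives for the mean over diets: with DESeq2's Wald test (adjusted p = 0.00664), with all genes that had at least 1 count (adjusted p = 0.029), and without replicate 1 of elastase+LPS mice on the control diet (log2 fold change 1.35, adjusted p = 0.00603). Without replicate 2 of that group, the library that stood apart, its value on the control diet was 0.61 (adjusted p = 0.464) and over both diets 0.97 (adjusted p = 0.0849).

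Derl3 (ENSMUSG00000009092, chromosome 10, 75893413 to 75895941) encodes a derlin of the ER membrane that takes part in the removal of misfolded proteins, and its promoter carries the ER stress response element shown above. It was at 1.41 and 1.66 CPM in PBS mice and at 3.07 and 3.53 CPM in elastase+LPS mice on the control diet. With TJ-41 it was at 1.59 and 2.75 CPM in PBS mice and at 5.63 and 2.35 CPM in elastase+LPS mice. The groups were separate on the control diet and overlapped on the TJ-41 diet, where the 2 elastase+LPS libraries differed by more than the group means did. The log2 fold changes were 1.10 (SE 0.46, 95% interval 0.06 to 2.15, adjusted p = 0.61), 0.88 (SE 0.45, -0.13 to 1.89, adjusted p = 0.773) and 0.99 over both diets (SE 0.32, 0.26 to 1.72, adjusted p = 0.304, edgeR's quasi-likelihood test). Without elastase+LPS TJ-41 diet replicate 1 the value on the TJ-41 diet was 0.12, and without elastase+LPS control diet replicate 1 the mean over diets was called (log2 fold change 1.04, adjusted p = 0.0491). Counts of Derl3 ran from 27 to 108 per library.

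Mzb1 (ENSMUSG00000024353, chromosome 18) encodes an ER protein of marginal zone B cells and plasma cells that assists the assembly of IgM and the folding of antibody chains. It was at 7.89 and 8.04 CPM in PBS mice and at 11.5 and 9.83 CPM in elastase+LPS mice on the control diet. In mice fed TJ-41 it was at 7.52 and 8.26 CPM in PBS mice and at 15.3 and 8.83 CPM in elastase+LPS mice. The 4 PBS libraries were close together, the 4 elastase+LPS libraries were spread, and the groups did not overlap. The log2 fold change of Mzb1 was 0.42 on the control diet (SE 0.28, 95% interval -0.22 to 1.06), 0.61 on the TJ-41 diet (SE 0.28, -0.02 to 1.25) and 0.52 over both (SE 0.20, 0.07 to 0.97, adjusted p = 0.406, edgeR's quasi-likelihood test). Without elastase+LPS TJ-41 diet replicate 1 the value on the TJ-41 diet was 0.17. The gene overlaps SPATA24 on the same strand in the annotation, so that reads in the shared stretch could have been counted to either.

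The surface receptors differed from each other in level and in spread. Tnfrsf17 (ENSMUSG00000022496, chromosome 16, 11313812 to 11320074) encodes BCMA, the receptor for APRIL that keeps long-lived plasma cells alive. Its counts on the control diet were 2 and 16 in the PBS libraries and 25 and 14 in the elastase+LPS libraries. With TJ-41 they were 8 and 9 in the PBS libraries and 35 and 16 in the elastase+LPS libraries. As CPM the 2 PBS libraries on the control diet were 0.104 and 0.830, and the elastase+LPS range on that diet, 0.717 to 1.30, overlapped theirs. Under TJ-41 the elastase+LPS libraries (1.82 and 0.817 CPM) lay above the PBS libraries (0.409 and 0.486 CPM). The log2 fold change was 1.10 on the control diet (SE 0.77, 95% interval -0.64 to 2.83), 1.55 on the TJ-41 diet (SE 0.76, -0.17 to 3.26) and 1.32 over both (SE 0.54, 0.10 to 2.54, adjusted p = 0.443, edgeR's quasi-likelihood test). A single PBS library decided the control diet value: it was 0.28 without PBS control diet replicate 1 and 3.19 without PBS control diet replicate 2.

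Sdc1 (ENSMUSG00000020592, chromosome 12, 8771323 to 8793715) encodes syndecan-1 (CD138), a heparan sulphate proteoglycan used to sort plasma cells and also carried by epithelium. It was at 154 and 160 CPM in PBS mice and at 138 and 190 CPM in elastase+LPS mice on the control diet, so that the groups overlapped. In mice fed TJ-41 it was at 138 and 131 CPM in PBS mice and at 176 and 167 CPM in elastase+LPS mice, which did not overlap. The log2 fold change was 0.06 (SE 0.18, 95% interval -0.35 to 0.48) on the control diet and 0.35 (SE 0.18, -0.07 to 0.76, adjusted p = 0.773, edgeR's quasi-likelihood test) on the TJ-41 diet. On the control diet the sign depended on the library that stood apart, since the value was -0.19 without it.

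The 4 transcription factors showed no separation between the groups in either model comparison. Xbp1 (ENSMUSG00000020484, chromosome 11, 5520659 to 5525893), the factor that expands the secretory apparatus, was at 301 and 261 CPM in PBS mice and 307 and 260 CPM in elastase+LPS mice on the control diet. With TJ-41 it was at 275 and 274 CPM in PBS mice and at 289 and 273 CPM in elastase+LPS mice. Its log2 fold change over both diets was 0.02 with a 95% interval from -0.25 to 0.29, the narrowest interval of the 10. The counts are per gene, so that the spliced, active form of Xbp1 mRNA cannot be told apart from the unspliced form.

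Prdm1 (ENSMUSG00000038151, chromosome 10, 44437177 to 44528501) was at 15.3 and 23.8 CPM in PBS mice and at 29.5 and 9.83 CPM in elastase+LPS mice on the control diet. Its highest and its lowest library were therefore the 2 replicates of 1 group. In mice fed TJ-41, Prdm1 was at 24.3 and 19.9 CPM in PBS mice and at 23.7 and 18.4 CPM in elastase+LPS mice. Its log2 fold change on the control diet was 0.01 (SE 0.44, 95% interval -0.98 to 1.00). That value was 0.60 without elastase+LPS control diet replicate 2 and -0.99 without replicate 1.

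Irf4 (ENSMUSG00000021356, chromosome 13, 30749226 to 30766976), which is needed to form and keep plasma cells, and Pou2af1 (ENSMUSG00000032053, chromosome 9, 51213708 to 51240080), the B cell coactivator OBF-1, had the same group of widest spread. Irf4 was at 16.9 and 21.1 CPM in PBS mice and at 22.6 and 10.8 CPM in elastase+LPS mice on the control diet. On the TJ-41 diet Irf4 was at 19.8 and 20.1 CPM in PBS mice and at 25.2 and 16.3 CPM in elastase+LPS mice. In each case the PBS range lay inside the elastase+LPS range. Pou2af1 was at 23.5 and 26.1 CPM in PBS mice and at 37.6 and 17.7 CPM in elastase+LPS mice on the control diet. On the TJ-41 diet Pou2af1 was at 22.0 and 29.7 CPM in PBS mice and at 26.6 and 21.7 CPM in elastase+LPS mice, and the groups again overlapped. Over both diets the log2 fold change was -0.06 for Irf4 (SE 0.24, 95% interval -0.61 to 0.48) and 0.03 for Pou2af1 (SE 0.23, -0.49 to 0.55). The annotation places Gm47828, a sense intronic transcript, inside Pou2af1. In replicate 2 of elastase+LPS mice on the control diet the log2 CPM was lower than in replicate 1 by 1.58 for Prdm1, 1.06 for Irf4 and 1.09 for Pou2af1. The same library had the lowest B cell marker level of the 8, and the part of that in these genes was not tested.

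Ell2 (ENSMUSG00000001542, chromosome 13, 75706757 to 75772364) encodes an elongation factor that favours the secreted over the membrane form of heavy chain mRNA. It was at 50.8 and 43.0 CPM in PBS mice and at 45.6 and 32.8 CPM in elastase+LPS mice on the control diet. On the TJ-41 diet it was at 41.9 and 53.1 CPM in PBS mice and at 35.1 and 35.7 CPM in elastase+LPS mice. The groups overlapped on the control diet and were separate on the TJ-41 diet. The log2 fold change was -0.26 (SE 0.21), -0.42 (SE 0.21) and, over both, -0.34 (SE 0.15, 95% interval -0.67 to -0.01, adjusted p = 0.469, edgeR's quasi-likelihood test). With all libraries it was the one gene of the 10 with a negative value at an unadjusted p under 0.05 in any comparison in that test. DESeq2's Wald test gave Ell2 an unadjusted p of 0.0518 over both diets. The control diet value of Ell2 was -0.52 without elastase+LPS control diet replicate 1 and -0.04 without replicate 2. An antisense gene, 1700037F03Rik, and 2 small or intronic genes overlap Ell2 in the annotation, and without a stated strand setting their reads cannot be told apart from its own.

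The second question was whether the TJ-41 diet changed these genes. In PBS mice 0 of 10 were called and 0 had an unadjusted p under 0.05, where 0% and 1.64% of all genes did (edgeR's quasi-likelihood test). DESeq2's Wald test and edgeR's exact test also called 0 of the 10 in each diet comparison. The median log2 fold change of the 10 was 0, as over all genes, and the values ran from -0.45 for Fkbp11 (SE 0.40) to 0.49 for Derl3 (SE 0.47). Both ends depended on single libraries. Fkbp11 was at 0.13 without PBS control diet replicate 1 and at -0.87 without replicate 2. Derl3 was at 0.83 without PBS TJ-41 diet replicate 1 and at 0.05 without replicate 2. Sdc1 was the only one of the 10 in which the TJ-41 libraries (138 and 131 CPM) and the control diet libraries (154 and 160 CPM) did not overlap, where 38.2% of all genes did not overlap. In elastase+LPS mice 0 of 10 were called and 0 had an unadjusted p under 0.05, where 0.00487% (1 gene) and 4.1% of all genes did. The values ran from -0.19 for Pou2af1 (SE 0.32) to 0.38 for Tnfrsf17 (SE 0.69), and the groups overlapped for all 10 genes, where 29% of all genes did not overlap. Prdm1 was called higher on TJ-41 in this comparison when replicate 1 of elastase+LPS mice on the control diet was left out (log2 fold change 1.10, adjusted p = 0.0476), and was at -0.49 when replicate 2 was left out. The count at an unadjusted p under 0.05 was 2 without replicate 1 (Prdm1 and Irf4, higher) and 1 without replicate 2 (Pou2af1, lower), beside 27.2% and 14.9% of all genes.

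The intervals show what size of diet effect these libraries left possible. In PBS mice the 95% interval was -0.41 to 0.35 for Xbp1, -0.66 to 0.63 for Mzb1 and -0.45 to 0.48 for Ell2 on the log2 scale. For Derl3 it was -0.57 to 1.56, and for Tnfrsf17 -1.96 to 1.83. The direction of the diet effect was not resolved with 2 libraries per group for any of the 10 genes, and the interval was widest for Tnfrsf17. In elastase+LPS mice the interval was -0.39 to 0.37 for Xbp1, -0.45 to 0.81 for Mzb1 and -1.03 to 0.67 for Fkbp11. The diet effect in elastase+LPS mice and that in PBS mice were compared directly. Of the 10 genes 0 were called and 0 had an unadjusted p under 0.05 (3.27% of all genes did, edgeR's quasi-likelihood test). The differences ran from -0.25 for Pou2af1 to 0.45 for Tnfrsf17 (SE 1.09). That of Tnfrsf17 was 1.27 without PBS control diet replicate 1 and -1.64 without replicate 2. That of Pou2af1 was 0.40 without elastase+LPS control diet replicate 1 and -0.68 without replicate 2. Without elastase+LPS control diet replicate 1 the difference had an unadjusted p under 0.05 for 2 genes, Prdm1 and Irf4, and without replicate 2 for 2 others, Pou2af1 and Sdc1 (13.3% and 20% of all genes).

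**Figure D3:**
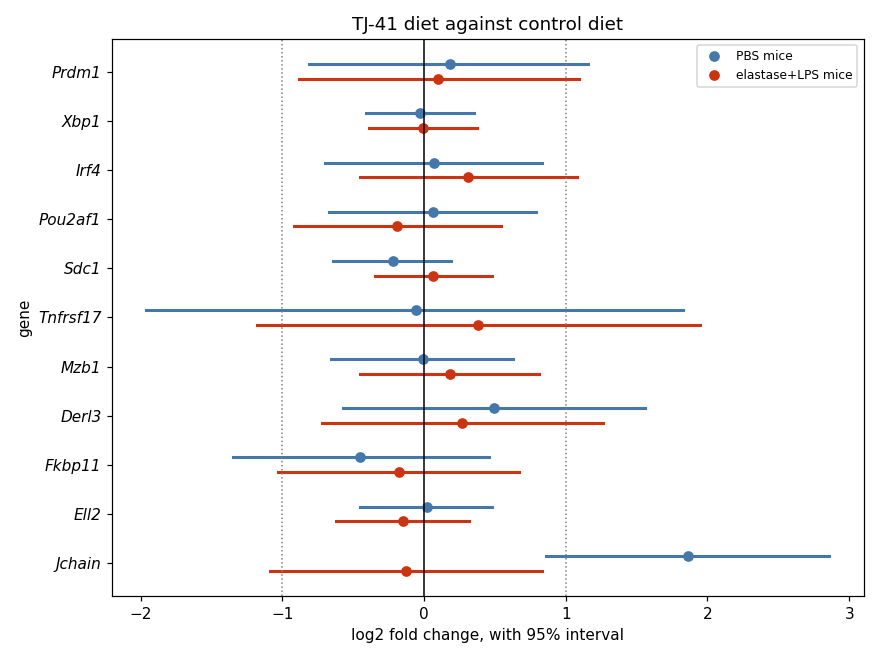
Log2 fold change between diets, TJ-41 over control (x axis), for each gene (y axis), in PBS mice and in elastase+LPS mice, with Jchain for comparison. Points are estimates, bars are 95% intervals, and dotted lines mark a log2 fold change of 1 in either direction. All 20 bars of the 10 genes cross 0, with the widest for Tnfrsf17.

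Antibody transcripts, the product of plasma cells, were followed beside these genes with 10 genes of their own: the J chain, 3 light chain and 6 heavy chain constant regions. All 10 were positive in both model comparisons. Their median log2 fold change was 3.40 on the control diet (5 called, all higher, beside 0.122% of all genes called). It was 1.85 on the TJ-41 diet (2 called, both higher, beside 0.0779% of all genes called). Over both diets all 10 had positive values and 7 of 10 were called, beside 0.443% of all genes. The largest log2 fold changes were 5.94 for Ighg1 (SE 0.48, adjusted p = 0.00111) and 5.10 for Ighg2c (SE 0.51, adjusted p = 0.00399, edgeR's quasi-likelihood test). Of the 10 only Jchain was followed through the alternatives, where its value over both diets (2.64 with all libraries) ran from 2.17 to 2.92. The constant regions of the IgG subclasses are similar in sequence, and how reads that fit several genes were counted is not given in the sources used here. Jchain was at 43.3 and 63.2 CPM in PBS mice and at 803 and 521 CPM in elastase+LPS mice on the control diet. On the TJ-41 diet it was at 201 and 185 CPM in PBS mice and at 894 and 313 CPM in elastase+LPS mice. Its log2 fold change was 3.64 on the control diet (SE 0.47, adjusted p = 0.0343) and 1.64 on the TJ-41 diet, where it was not called (adjusted p = 0.465). The call on the control diet was lost when any 1 of the 4 PBS libraries was left out (adjusted p = 0.102 to 0.447), while its value stayed between 3.29 and 3.93 in all alternatives. On the TJ-41 diet Jchain was called with DESeq2 (adjusted p = 0.00552), with edgeR's exact test (adjusted p = 0.0391) and with all genes that had at least 1 count (adjusted p = 0.0459). There its value was 0.70 without elastase+LPS TJ-41 diet replicate 1 and 2.22 without replicate 2 of that group.

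For the TJ-41 diet in PBS mice, 9 of 10 antibody genes and 5 of 10 plasma cell genes had positive values, beside 49.7% of all genes. In this comparison the median log2 fold change of the antibody genes for the diet was 1.31. Of these 10 genes 0 were called and 5 had an unadjusted p under 0.05 (edgeR's quasi-likelihood test), beside 0% and 1.64% of all genes. Jchain was at 1.86 (DESeq2's Wald test called it, with an adjusted p of 0.00678). The medians of the 4 transcription factors, the 2 receptors and the 3 ER genes in the same comparison were 0.06, -0.14 and -0.01. In elastase+LPS mice the antibody median for the diet was -0.01. The model comparison on the control diet and the diet comparison in PBS mice share the PBS control diet libraries, so their values are set side by side here and not as independent results.

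Summed over the 10 antibody genes, the level was 633 and 773 CPM in PBS mice on the control diet and 1450 and 1290 CPM in PBS mice on TJ-41. It was 5160 and 5130 CPM in elastase+LPS mice on the control diet and 7540 and 2760 CPM in elastase+LPS mice on TJ-41. The 10 plasma cell genes summed to 534 to 576 CPM in the PBS libraries and to 545 to 605 CPM in the elastase+LPS libraries, and most of that sum was Xbp1 and Sdc1. The 3 ER genes alone summed to 11.9 to 14.3 CPM in the PBS libraries and to 18.9 to 26.8 CPM in the elastase+LPS libraries, with no overlap. Per 1000 CPM of antibody transcript, Mzb1 was at 5.20 to 12.5 CPM in the PBS libraries and at 1.92 to 3.20 CPM in the elastase+LPS libraries. The same ratio for Derl3 was 1.10 to 2.23 in the PBS libraries and 0.596 to 0.850 in the elastase+LPS libraries. Both ratios were thus lower in all 4 elastase+LPS libraries, while the ratio for Tnfrsf17 overlapped (0.165 to 1.07 against 0.140 to 0.296). These ratios are descriptions of 8 libraries that share the antibody counts as their divisor.

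**Figure D4:**
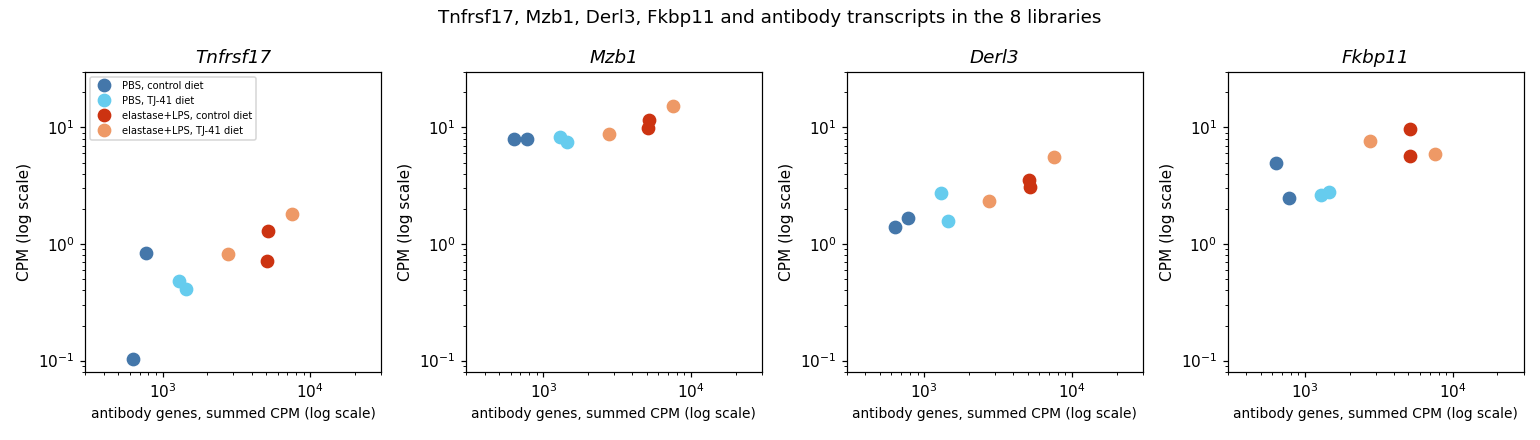
CPM of Tnfrsf17, Mzb1, Derl3 and Fkbp11 (y axes, log scale) against the summed CPM of the 10 antibody genes (x axes, log scale) in the 8 libraries, coloured by group. The antibody sum spans 633 to 7540 CPM, while Mzb1 spans 7.52 to 15.3 CPM and Derl3 1.41 to 5.63 CPM.

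Within the elastase+LPS mice on TJ-41 the 2 libraries differed in step for several of these genes. Replicate 2 was below replicate 1 on the log2 scale by 1.26 for Derl3, 1.16 for Tnfrsf17, 0.79 for Mzb1 and 1.51 for Jchain. Fkbp11 went the other way there, with replicate 2 higher by 0.39, and Xbp1 differed by 0.08. The profile of Derl3 over the 8 libraries, each centred on its own mean of log2 CPM, was nearest among the 10 genes to that of Mzb1, with a root mean square difference of 0.28. Among all 18052 genes compared, its nearest were Xlr4a (0.18), Eaf2 (0.22) and Gm4076 (0.23), Eaf2 encoding a partner of the ELL elongation factors. For Fkbp11 the nearest of the 10 genes was Sdc1 at 0.52, while over all genes Wfdc21 (0.13), Ccl6 (0.15) and Sec1 (0.17) were nearest. Derl3 and Fkbp11 were the 2 genes of the 10 whose group means of log2(CPM + 0.5) spanned more than 1. Tnfrsf17 spanned 0.96 on that scale, on which the added 0.5 CPM shrinks differences of so low a gene.

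The general secretory pathway, which every cell uses and which plasma cells enlarge, was followed with 62 genes in 4 lists. Over both diets 0 of 62 were called in the model comparison and 4 had an unadjusted p under 0.05 (edgeR's quasi-likelihood test). Of all genes 0.443% were called and 10.4% had such a p, which are the shares for all counts in this paragraph. The median log2 fold change of the 62 was -0.01. Of 20 ER chaperones and folding enzymes, 16 had negative values (median -0.12), from -0.36 for Hspa5, the chaperone BiP, to 0.12 for P4hb. Of 12 genes of ER-associated degradation, the highest was Herpud1 (0.60, SE 0.15, adjusted p = 0.153). It was at 111 to 143 CPM in the PBS libraries and 162 to 231 CPM in the elastase+LPS libraries, with no overlap, and the lowest was Edem3 (-0.24). The 16 genes of translocation and signal peptide processing had a median of 0.04, from -0.11 for Sec61a1 to 0.56 for Sec61g. The 14 genes of transport from ER to Golgi had a median of 0.02, from -0.22 for Sar1b to 0.22 for Kdelr1. Of the 9 sensors and stress factors of the unfolded protein response 0 were called and 1 had an unadjusted p under 0.05: Trib3, a target of the ATF4 arm, was highest at 0.89 (SE 0.21, adjusted p = 0.128, edgeR's quasi-likelihood test). Ern1, the enzyme that splices Xbp1, was lowest at -0.18. The Derl3 relatives Derl1 and Derl2 are among the 12 degradation genes, of which 0 were called.

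The B cell side of the switch and the niche were also followed. The counts below stand beside 0.443% of all genes called and 10.4% with an unadjusted p under 0.05 over both diets (edgeR's quasi-likelihood test). Of 10 genes of the B cell programme that Blimp-1 opposes, 0 were called over both diets and 2 had an unadjusted p under 0.05 (edgeR's quasi-likelihood test), with values from -0.60 for Pax5 (adjusted p = 0.468) to 0.24 for Id3 and a median of -0.03. The 10 B cell markers had negative values in all 10 cases, from -0.70 for Bank1 to -0.21 for Fcer2a (median -0.49, 0 called, 2 at an unadjusted p under 0.05). Their summed level was 412 to 429 CPM in the PBS libraries and 200 to 446 CPM in the elastase+LPS libraries, so that the groups overlapped. Of 12 plasma cell surface and niche receptors, 0 were called and 2 had an unadjusted p under 0.05, from -0.45 for Itga4, an integrin chain that holds plasma cells in their niche, to 0.48 for Slamf7, a surface marker of plasma and cytotoxic cells. Of 8 niche ligands 6 could be tested, 0 were called and 1 had an unadjusted p under 0.05. The highest was Cxcl12, the chemokine that draws Cxcr4-bearing plasma cells (0.90, SE 0.21, adjusted p = 0.128, edgeR's quasi-likelihood test), and the lowest was Il5 (-0.41).

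**Figure D5:**
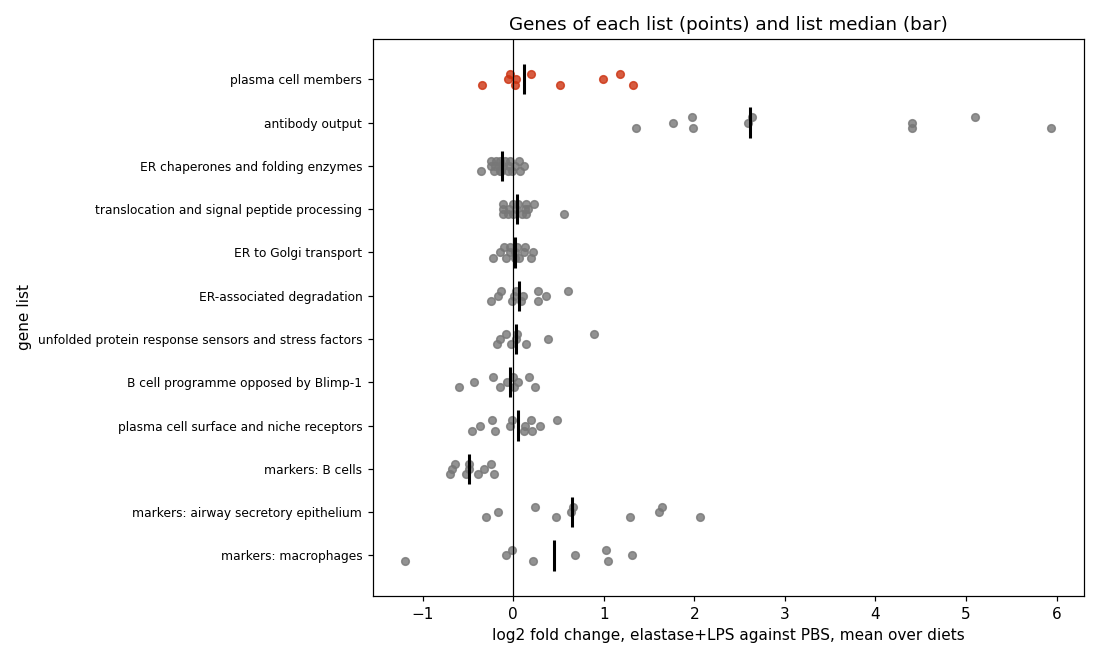
Log2 fold change of elastase+LPS against PBS mice, averaged over the diets (x axis), for each gene of 12 lists (y axis). Points are genes, black bars are list medians, and the plasma cell genes are in red. The antibody genes lie between 1.36 and 5.94 with a median of 2.61, while the plasma cell genes lie between -0.34 and 1.32 with a median of 0.12.

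Markers of other cells were set beside these values, and their part in them was not tested. Some of their sums separated the PBS from the elastase+LPS libraries and others overlapped. Over both diets 0.443% of all genes were called and 10.4% had an unadjusted p under 0.05 (edgeR's quasi-likelihood test), beside which the counts below stand. The summed level of 8 macrophage markers was 648 to 822 CPM in the PBS libraries and 1010 to 1670 CPM in the elastase+LPS libraries, with values from -1.19 for Siglecf to 1.31 for Chil3 (0 of 8 called and 4 at an unadjusted p under 0.05 over both diets). Of 10 markers of airway secretory epithelium, which also uses Fkbp11, Xbp1 and Sdc1, 1 was called over both diets. This was Reg3g, which was higher (log2 fold change 2.06, SE 0.32, adjusted p = 0.0342, edgeR's quasi-likelihood test). Their summed level overlapped between the PBS libraries (18000 to 21700 CPM) and the elastase+LPS libraries (12300 to 29800 CPM). The T cell markers had a median of 0.34, from -0.08 for Il7r to 0.64 for Cd3g, with 0 of 8 called, 4 at an unadjusted p under 0.05 and summed levels of 96.5 to 115 CPM and 107 to 151 CPM. The plasmacytoid dendritic cell markers, of a type that shares part of the ER programme of plasma cells, had a median of -0.09, from -0.75 for Siglech to 0.06 for Cox6a2 (0 of 8 called and 1 at an unadjusted p under 0.05). Their summed level was 280 to 348 CPM in the PBS libraries and 265 to 330 CPM in the elastase+LPS libraries. Of the 6 germinal centre B cell markers 4 could be tested, and 0 were called or had an unadjusted p under 0.05, from -0.26 for Fas to 0.23 for Gcsam. The 6 capillary endothelium markers summed to 2590 to 3100 CPM in the PBS libraries and to 2280 to 2540 CPM in the elastase+LPS libraries, with no overlap (0 of 6 called and 2 at an unadjusted p under 0.05 over both diets). Cell cycle genes summed to 73.8 to 138 CPM in the PBS libraries and to 60.2 to 75.4 CPM in the elastase+LPS libraries, with 0 of 6 called and 4 at an unadjusted p under 0.05. The library that stood apart, replicate 2 of elastase+LPS mice on the control diet, had the highest sum of 8 heat shock and immediate early genes (712 CPM, against 268 to 554 in the other 7 libraries). It also had the highest sums of alveolar type I markers (5430 CPM, against 3450 to 4730) and of heart muscle genes (655 CPM, against 243 to 514), and the lowest of neutrophil markers (73.3 CPM, against 154 to 369).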

How the data were processed

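Total lung RNA was sequenced in 8 libraries, and the groups and replicate numbers were taken from the labels. Per the labels and the file contents, the authors deposited raw read counts per Ensembl gene, 1 file per library, without normalization. The submitters' processing notes name HISAT2, edgeR and the genome build mm10 without versions, and the paper names CLC Genomics Workbench. How reads were assigned to genes (the program, its annotation, strand, reads with several matches) is not given in the sources used here, which could shift counts between overlapping or similar genes.

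Of 52636 gene identifiers, 52489 were found in GENCODE M21 (GRCm38), which gave symbols, coordinates and exon lengths. Counts were analysed in R 4.3.3 with edgeR 4.0.16: filterByExpr (minimum count 10, minimum total 15), TMM scaling, and the quasi-likelihood test on 4 group means (4 residual degrees of freedom, common biological coefficient of variation 0.208). The standard error is the log2 fold change divided by the square root of F. P-values were adjusted by Benjamini-Hochberg over 20546 genes, and a call needed both an adjusted p under 0.05 and a change beyond 1 on the log2 scale, which is how the paper's thresholds were read. Profiles were compared on log2(CPM + 0.5), over genes whose mean reached 1 CPM. With 18767295 to 20888042 counts per library, 3 counts equal 0.153 to 0.162 CPM, a limit of counting error only. Replicates of a group differed by 11.9 to 88.1 times the variance of counting alone, so no library was a copy of another.

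The 10 genes and 22 further lists were chosen with earlier results of these data known. The text names all 10 genes, the antibody genes, called genes of other lists or else the highest and lowest of a list, and the 3 nearest profiles of each gene whose group means span more than 1 on the log2(CPM + 0.5) scale. Derl1 and Derl2 were named outside that rule, after their values were seen. Of the 22 lists, those of alveolar type I cells, neutrophils, capillary endothelium, heart muscle, cell cycle, and heat shock and immediate early genes had 0 genes called in any comparison. They are given by their summed levels, with test counts for capillary endothelium and cell cycle alone. Alveolar type II markers are also given by their summed level only. Alternatives were DESeq2 1.42.0, edgeR's exact test, other scalings, filters and call rules, a replicate block and leaving out each library. The steps were tested on simulated counts. Sequences came from RefSeq promoter windows on GRCm38.p6.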

Additional observations from a re-analysis of the deposited data

How the results depend on the processing

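Of the 6 counts of plasma cell genes called, each 0, those for the TJ-41 diet in PBS mice and for the difference of the diet effects stayed at 0 under every alternative run. The count for the model on the TJ-41 diet was 1 with only the groups compared (Fkbp11, adjusted p = 0.0211). The count for the mean over diets was 1 with DESeq2 and 1 with all genes that had at least 1 count (Fkbp11 in each). Leaving out 1 library gave 0 to 1 for the model on the control diet, 0 to 1 for the TJ-41 diet in elastase+LPS mice and 0 to 2 for the mean over diets. In these fits every nonzero count came from leaving out elastase+LPS control diet replicate 1, where Fkbp11, Prdm1 and Derl3 were called and the number of genes called went from 25 to 1343 on the control diet, from 1 to 728 for the TJ-41 diet in elastase+LPS mice and from 91 to 873 over both diets. Prdm1, not called with all libraries, was called at 1.10 for the TJ-41 diet in elastase+LPS mice without control diet replicate 1 and was at -0.49 without replicate 2. Uncalled values of the 10 genes had the opposite sign in 68 of 480 fits with a library left out and in 4 of 493 other fits. Fkbp11, Derl3, Mzb1, Tnfrsf17 and Ell2 kept their sign in every alternative run for the 3 model comparisons. The number of all genes called was 171 on the control diet, 125 on the TJ-41 diet and 245 over both diets with DESeq2, against 25, 16 and 91. In the diet comparisons DESeq2 called 10 genes in PBS mice and 12 in elastase+LPS mice, against 0 and 1. With edgeR's exact test the counts were 202 and 128 on the control and TJ-41 diets, and with all genes that had at least 1 count they were 147, 89 and 278 in the 3 model comparisons. With only the groups compared, 248 genes were called for the model on the TJ-41 diet. The cause of these differences was not tested. With the replicate number as a replicate block, 0 of the 10 genes were called in all 6 comparisons, and 21, 18 and 74 of all genes were called for the model on the control diet, on the TJ-41 diet and over both. The replicate numbers mark no shared origin in the labels, and the correlations of replicate differences between groups ran from -0.248 to 0.14, so no block was used. Tnfrsf17, at 2 to 35 counts per library, did not pass the filter on mean CPM and has no value there. The counts of the 10 genes at an unadjusted p under 0.05 were also computed without each library, an alternative chosen after seeing the data. They ran from 1 to 6 for the model on the control diet (2 with all libraries), from 1 to 5 on the TJ-41 diet (1) and from 1 to 7 over both diets (5). They ran from 0 to 2 for the TJ-41 diet in elastase+LPS mice and for the difference of the diet effects (0 in each), and were 0 throughout for that diet in PBS mice. Depth limits statements on Tnfrsf17, Derl3 and Fkbp11, the 3 genes with the fewest counts, and 2 libraries per group limit all of them.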
